A study of Mus musculus with 3 samples.

Results

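Prostaglandin synthesis and transport genes were followed through the cell types of mouse skin. The set has 8 members of the 31053 genes in the files: the cyclooxygenases Ptgs1 and Ptgs2, the terminal synthases Ptges, Ptgds and Hpgds, the degrading enzyme Hpgd, the carrier Slco2a1 and the receptor Ptger4. They were taken by gene symbol, from a list chosen with earlier results of these data known, and all 8 had counts in both libraries. The skin came from C57BL/6 mice at postnatal week 7 and was profiled by droplet single-cell RNA sequencing. The library labelled metformin, a biguanide drug, gave 8827 cells, and the library labelled control gave 9688 cells. Another library of the series, from skin given the agent Shi-Bi-Man, was not analysed here. Dose, route, skin region and the number of animals per library were not given in the sources used here.

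Cyclooxygenases turn arachidonic acid, which phospholipases free from membranes, into prostaglandin H, the common precursor of all prostaglandins. Terminal synthases then make prostaglandin E or prostaglandin D from it, carriers of the Slco family bring prostaglandins back into cells, and a cytosolic dehydrogenase oxidises them to weakly active products. In skin, prostaglandin E is known for its part in wound repair and inflammation, and prostaglandin D for holding back hair growth.

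Each condition was 1 library, so no difference between them could be tested, and every interval below is a 95% interval of counting error only. The files held 12092 barcodes in metformin and 12108 in control, of which 41 were the same sequence in both. Kept cells had a median of 5568 unique molecular identifiers (UMIs, 1 for each captured RNA molecule) in metformin and 3557 in control. The cells fell into 31 clusters, built without the 8 members, and 29 of these could be named from marker genes. A class is called X-like for its markers. A level is the UMIs of a gene per 1000000 UMIs of the class in that library (CPM), and a ratio is metformin CPM over control CPM. Hair matrix-like cells, which here take in those of the shaft and inner root sheath, numbered 927 in metformin and 18 in control, and were 18.6% and 0.569% of the keratinocyte-like cells. Values pooled over keratinocyte-like cells therefore mix unlike cells, and the layers of the epidermis are given on their own.

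Promoter sequence is shown for the pair of cyclooxygenases, whose levels ran in opposite directions across the epidermis, and for the other members that were at least 4-fold higher in some class than in all other cells of both libraries. Each line gives the 250 bases before the transcription start of the RefSeq annotation (GRCm38.p6), on the strand of the gene. Capitals mark matches, on either strand, to 6 known motifs. They are TATAAA for the binding protein of the core promoter, TGANTCA for AP-1, ACGTCA for the core of the cyclic AMP response element, CACGTG for the E-box, CATGTG for the core of the M-box of melanocyte genes and TTGCGCAA for C/EBP. The sequences lie at chr2:36230176-36230425 on the plus strand (Ptgs1), chr1:150099781-150100030 on the plus strand (Ptgs2), chr6:65144731-65144980 on the minus strand (Hpgds), chr2:25469750-25469999 on the minus strand (Ptgds) and chr9:103008237-103008486 on the plus strand (Slco2a1).
Ptgs1: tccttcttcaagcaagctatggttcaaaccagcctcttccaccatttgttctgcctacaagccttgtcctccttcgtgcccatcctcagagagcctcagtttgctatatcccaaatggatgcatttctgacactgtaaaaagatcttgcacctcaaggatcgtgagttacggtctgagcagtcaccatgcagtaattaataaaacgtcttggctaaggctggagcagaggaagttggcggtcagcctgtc
Ptgs2: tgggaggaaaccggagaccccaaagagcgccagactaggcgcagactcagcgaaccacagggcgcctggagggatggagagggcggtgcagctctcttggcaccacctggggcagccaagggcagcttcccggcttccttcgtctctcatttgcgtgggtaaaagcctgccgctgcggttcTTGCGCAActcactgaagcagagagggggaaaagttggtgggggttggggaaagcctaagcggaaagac
Hpgds: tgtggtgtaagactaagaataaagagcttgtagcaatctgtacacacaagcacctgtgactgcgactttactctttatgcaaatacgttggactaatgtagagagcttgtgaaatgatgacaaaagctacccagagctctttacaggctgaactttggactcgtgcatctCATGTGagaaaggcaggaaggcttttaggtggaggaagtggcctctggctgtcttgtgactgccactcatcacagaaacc
Ptgds: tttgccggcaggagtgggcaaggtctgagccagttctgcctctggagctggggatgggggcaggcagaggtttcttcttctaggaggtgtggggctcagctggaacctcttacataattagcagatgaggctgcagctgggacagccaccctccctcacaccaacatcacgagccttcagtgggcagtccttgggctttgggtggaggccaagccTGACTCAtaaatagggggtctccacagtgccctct
Slco2a1: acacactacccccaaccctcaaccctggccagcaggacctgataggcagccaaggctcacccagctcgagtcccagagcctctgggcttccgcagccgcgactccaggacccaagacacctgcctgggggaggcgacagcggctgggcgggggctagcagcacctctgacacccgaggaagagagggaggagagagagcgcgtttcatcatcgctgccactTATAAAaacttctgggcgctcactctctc
The Ptgs2 window held the C/EBP letters 69 bases before the start, which 0.164% of the 32851 windows in the table held, and the Ptgs1 window held none of the 6 motifs. The Hpgds window held CATGTG 80 bases before the start, as did 12.3% of windows, and the Ptgds window held TGACTCA 35 bases before it, with TGANTCA in 6.75% of windows. The Slco2a1 window held TATAAA 29 bases before its start, as did 12.4% of windows. ACGTCA and CACGTG, found in 6.47% and 6.02% of windows, had no match in any member. A match is a description of letters, not a binding site. In the GRCm38 build the members are Ptgs1 at chr2:36230426-36252272 (plus strand), Ptgs2 at chr1:150100031-150108227 (plus strand), Ptges at chr2:30889471-30929863 (minus strand), Ptgds at chr2:25466709-25470046 (minus strand), Hpgds at chr6:65117293-65144908 (minus strand), Hpgd at chr8:56294585-56321043 (plus strand), Slco2a1 at chr9:102988712-103096002 (plus strand) and Ptger4 at chr15:5206661-5244187 (minus strand), all protein-coding genes.

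Ptgs1, the cyclooxygenase usually made without a stimulus, was a gene of the upper epidermis. Its level in granular epidermis-like cells was 411 CPM in metformin (374 to 451) and 302 CPM in control (280 to 325). In suprabasal epidermis-like cells it was 125 CPM (117 to 133) and 138 CPM (130 to 146), and in basal epidermis-like cells 17.2 CPM (15.2 to 19.4) and 25.9 CPM (22.8 to 29.2). The order granular over suprabasal over basal was thus the same in both libraries, with intervals that did not overlap. Within the suprabasal cells, the cluster led by Krt1, Mt4 and Krtdap had 176 and 177 CPM and the cluster led by Krt1, Krt16 and Mt4 had 102 and 106 CPM. After each cell was thinned to 1500 UMIs, 45.5% of granular cells in metformin and 40.7% in control had a Ptgs1 UMI, against 2.28% and 2.72% of basal cells. Hair follicle stem or outer root sheath-like cells, a class near 0, had 0.431% and 0.521% before thinning.

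**Figure D1:**
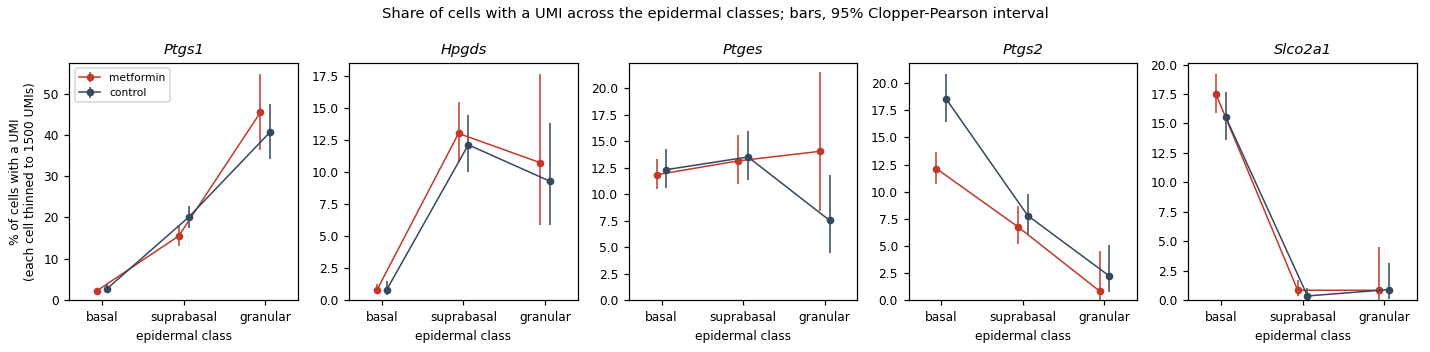
Share of cells with a UMI of 5 members in basal, suprabasal and granular epidermis-like cells (horizontal axis), in percent after each cell was thinned to 1500 UMIs (vertical axis, own scale for each gene), for metformin (red) and control (dark), with 95% Clopper-Pearson intervals. Ptgs1 climbs to 45.5% and 40.7% in granular cells while Ptgs2 drops to 0.826% and 2.21%, and Slco2a1 is high in basal cells only, at 17.5% and 15.5%.

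Outside the keratinocytes, Ptgs1 was high in Langerhans cell-like cells, the dendritic cells of the epidermis. There it reached 314 CPM in metformin (256 to 382) and 228 CPM in control (183 to 282), in 53 and 63 cells. The 6 suprabasal markers summed to 77 CPM and 494 CPM in these cells, against 25557 CPM and 32942 CPM in suprabasal cells. Vascular endothelium-like cells had 95.9 CPM in metformin and 41.1 CPM in control, from 61 and 16 UMIs. Set against all other cells of its library, Ptgs1 was 13.6-fold higher in granular cells in metformin and 7.33-fold in control, and 8.53-fold and 4.33-fold higher in Langerhans cell-like cells. It was the only member of 8 past 4-fold in both libraries in granular cells, where 3.25% of 14395 genes were. In Langerhans cell-like cells 2 members were past it, Ptgs1 and Hpgds, beside 3.13% of genes.

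Between the libraries, the Ptgs1 ratio was 1.36 (1.21 to 1.54) in granular cells, 0.906 (0.829 to 0.99) in suprabasal cells and 0.665 (0.558 to 0.793) in basal cells. The granular class itself was unlike in the libraries: its 6 markers summed to 2401 CPM in metformin and 17445 CPM in control, and the part of this in the ratio was not tested. The suprabasal ratio turned above 1 under 3 of the alternatives. Vascular endothelium-like cells had a ratio of 2.33 (1.33 to 4.34), and Langerhans cell-like cells 1.38 (1.02 to 1.85).

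Hpgds, the glutathione-dependent synthase of prostaglandin D found in blood-derived cells, was high beside Ptgs1 in Langerhans cell-like and suprabasal epidermis-like cells, but not in every class. Langerhans cell-like cells had the highest level in each library, at 397 CPM in metformin (332 to 472) and 362 CPM in control (304 to 428), and 75.5% and 60.3% of them had a UMI. Suprabasal epidermis-like cells had 98.4 CPM and 101 CPM, and because they are many they held 61.5% and 62.4% of all Hpgds UMIs. Basal cells had 5.85 CPM and 4.34 CPM, while upper hair follicle-like cells had a UMI in 0.635% and 0.533% of cells. Within the suprabasal cells Hpgds was higher in the cluster led by Krt1, Mt4 and Krtdap (163 CPM and 142 CPM) than in the cluster led by Krt1, Krt16 and Mt4 (69.9 CPM and 66.8 CPM). In control it fell from suprabasal to granular cells (101 CPM to 60 CPM), where Ptgs1 rose (138 CPM to 302 CPM). Upper hair follicle-like cells had 48.9 CPM and 56.4 CPM of Ptgs1 but 0.968 CPM and 1.13 CPM of Hpgds. Epidermal gamma delta T cell-like cells had 0.936 CPM and 1.69 CPM of Ptgs1 but 69.2 CPM and 86.2 CPM of Hpgds.

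Other immune cells split over Hpgds. Epidermal gamma delta T cell-like cells had 69.2 CPM in metformin (54.4 to 86.9) and 86.2 CPM in control (70.3 to 105), and macrophage-like cells 69.8 CPM (38.2 to 117) and 61.7 CPM (41.9 to 87.6). Dendritic cell-like cells had 6.05 CPM and 3.27 CPM, from 6 and 5 UMIs. A phagocyte cluster that was not resolved further, led by Irf8, Wdfy4 and Cd207, had 72 and 81 cells. It had 1 and 0 UMIs of Hpgds and 0 and 1 of Ptgs1, although Cd207 also led the Langerhans cell-like cluster. Hpgds was 19.3-fold and 13.9-fold higher in Langerhans cell-like cells than in all other cells of the library, and 9.51-fold and 7.58-fold higher in suprabasal cells, where it was the only member past 4-fold in both libraries and 0.368% of genes were. Its ratio between libraries had an interval that held 1 in Langerhans cell-like cells (1.1, 0.856 to 1.4), suprabasal cells (0.979, 0.884 to 1.08), gamma delta T cell-like cells (0.803, 0.587 to 1.09) and macrophage-like cells (1.13, 0.556 to 2.19). In granular cells, with their unlike marker sums, it was 1.72 (1.33 to 2.22), from 103 CPM and 60 CPM.

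Cells with both Ptgs1 and Hpgds would hold an upstream and a downstream enzyme of prostaglandin D. In thinned granular cells 4.96% in metformin and 4.87% in control had a UMI of each, beside 4.88% and 3.78% as the product of the single shares. In Langerhans cell-like cells 7 of 52 and 6 of 59 thinned cells had both, or 13.5% and 10.2%, beside products of 8.8% and 9.48%. In thinned suprabasal cells the shares with both were 1.78% and 3.67%, beside products of 2.02% and 2.43%. These shares are descriptions with no test.

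Ptgs2, the inducible cyclooxygenase, ran the other way through the epidermis. Basal epidermis-like cells had 106 CPM in metformin (101 to 111) and 187 CPM in control (179 to 196), suprabasal cells 58.2 CPM and 75.8 CPM, and granular cells 2.72 CPM and 13.2 CPM, the last from 3 and 30 UMIs. Basal cells held 63.4% of all Ptgs2 UMIs in metformin and 39.8% in control. Upper hair follicle-like cells, which are keratinocytes too, had 0.968 CPM and 4.14 CPM. Among the cycling basal cells, led by Ube2c, Hist1h2ap and Birc5, it was 60.6 CPM and 104 CPM, below the other basal cluster (117 CPM and 201 CPM) in both libraries.

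Among immune cells, Ptgs2 was highest in dendritic cell-like cells in both libraries. Dendritic cell-like cells had 161 CPM in metformin (137 to 188) and 179 CPM in control (158 to 201), and 22.3% and 21.5% of them had a UMI. Macrophage-like cells had 105 CPM and 89.6 CPM, but 1 cell held 66.7% of the 21 metformin UMIs. Langerhans cell-like cells had 61.6 CPM and 131 CPM, from 20 and 50 UMIs, of which 5 cells held 95% and 90%. Epidermal gamma delta T cell-like cells had 0.936 CPM and 9.3 CPM. Other T cell-like cells had 15.7 CPM and 51.4 CPM, with 63.0% of the control UMIs in 1 cell.

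In fibroblast-like cells Ptgs2 was several-fold lower in metformin than in control. The level was 29 CPM in metformin (24.3 to 34.5) and 139 CPM in control (132 to 146), from 130 UMIs in 1269 cells and 1487 UMIs in 3691 cells. The ratio was 0.209 (0.173 to 0.25), and it was below 1 in each of the 4 fibroblast-like clusters. In the cluster led by Tnc, Timp1 and Cxcl12 the levels were 41.9 CPM and 312 CPM, in that led by Coch, Ctgf and Dkk2 37.3 CPM and 87.3 CPM, in that led by Cyp2f2, Cpz and Dcn 14.4 CPM and 58.7 CPM, and in that led by Stc1, Igfbp2 and Grem1 3.23 CPM and 21.9 CPM. The unnamed cluster led by Plac8, Gpx3 and Sfrp4, whose best-scoring type was fibroblast, is not counted among these. It had 100 CPM and 132 CPM, a ratio of 0.759 (0.554 to 1.03), so the drop was not alike in all such cells. Dermal sheath-like cells had 4.1 CPM and 57.4 CPM, from 8 and 47 UMIs, a ratio of 0.0714 (0.0292 to 0.153), with 29.8% of the control UMIs in 1 cell. In the epidermis the ratio was 0.567 (0.53 to 0.606) in basal, 0.768 (0.677 to 0.87) in suprabasal and 0.205 (0.0401 to 0.66) in granular cells. In granular cells 1 cell held 36.7% of the control UMIs. Among immune cells it was 0.903 (0.738 to 1.1) in dendritic cell-like, 1.17 (0.661 to 2.0) in macrophage-like, 0.469 (0.265 to 0.803) in Langerhans cell-like and 0.305 (0.137 to 0.636) in other T cell-like cells. Thinned to 1500 UMIs, 2.4% of fibroblast-like cells in metformin and 8.34% in control had a Ptgs2 UMI. When the libraries were clustered apart, the fibroblast-like log2 ratio was -0.65 in place of -2.26, on fewer cells, since some control fibroblast clusters then had no name.

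Ptgs2 is also an immediate early gene that tissue dissociation can switch on, so a list of 15 dissociation stress genes was set beside it. In fibroblast-like cells all 15 had a ratio below 1, with a median log2 ratio of -0.55, against 0.03 over all 11844 genes measured. In dermal sheath-like cells all 15 were below 1 too, with a median of -1.30, and 11 were past 2-fold lower, beside 9.44% of genes. In keratinocyte-like cells 13 of 15 were below 1 with a median of -0.16, whereas in dendritic cell-like cells 12 of 15 were above 1 with a median of 0.37. In basal epidermis-like cells 9 of 15 were below 1 with a median of -0.16. In T cell-like cells 9 of 15 were above 1 with a median of 0.07. The Ptgs2 log2 ratios were -2.26 in fibroblast-like and -3.81 in dermal sheath-like cells, below the medians of the list. They were also below its lowest genes there, Nr4a1 at -1.40 and Atf3 at -2.27. In other classes the Ptgs2 log2 ratios differed. They were -0.82 in basal epidermis-like, -0.15 in dendritic cell-like and -1.71 in T cell-like cells, the last from 12 and 38 UMIs. The stress genes moved with Ptgs2 in the dermis, and their part in its ratio was not tested.

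**Figure D2:**
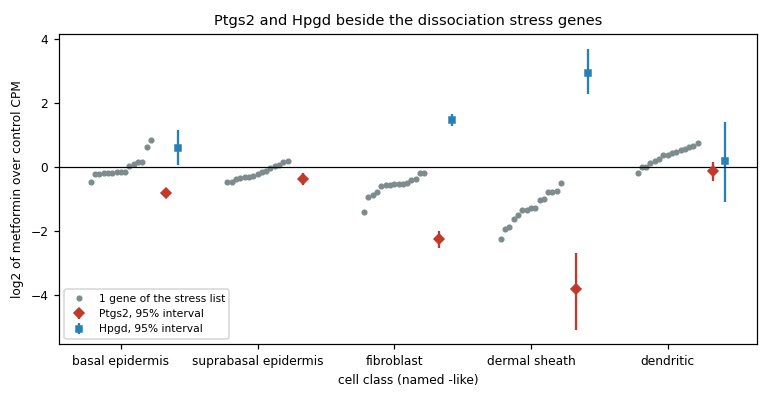
Log2 of metformin over control CPM (vertical axis) in 5 cell classes (horizontal axis) for each of the 15 dissociation stress genes (grey points, sorted), for Ptgs2 (red diamonds) and for Hpgd where it was measured (blue squares), with 95% counting intervals on the members. In fibroblast-like and dermal sheath-like cells the grey points and Ptgs2 (-2.26 and -3.81) lie below 0, while Hpgd lies above 0 at 1.46 and 2.94.

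Ptges, the inducible synthase that makes prostaglandin E from the product of either cyclooxygenase, had similar levels in the layers of the epidermis. Basal cells had 87.6 CPM in metformin (83 to 92.5) and 93.6 CPM in control (87.6 to 99.8), suprabasal cells 104 CPM (96.3 to 111) and 113 CPM (106 to 120), and granular cells 105 CPM (86.8 to 126) and 95.4 CPM (83.1 to 109). The suprabasal interval lay above the basal one in both libraries. After thinning, 14.0% and 7.52% of granular cells had a Ptges UMI, against 13.2% and 13.5% of suprabasal cells. In thinned suprabasal cells, Ptges was found together with Ptgs1 in 1.66% and 1.72% of cells, beside products of the single shares of 2.04% and 2.71%, and together with Ptgs2 in 1.3% and 1.72%, beside 0.888% and 1.05%. Upper hair follicle-like cells had 31.5 CPM and 26.7 CPM, and sebaceous gland-like cells 50.7 CPM and 43 CPM. T cell-like and mononuclear phagocyte-like cells were near 0, with 3 and 16 UMIs and with 5 and 17 UMIs.

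The libraries were close for Ptges in the epidermis, with ratios of 0.937 (0.861 to 1.02) in basal, 0.918 (0.833 to 1.01) in suprabasal and 1.1 (0.872 to 1.39) in granular cells. In the dermis it was lower in metformin. Fibroblast-like cells had 43.6 CPM in metformin and 58.4 CPM in control (ratio 0.746, 0.632 to 0.878), a ratio whose log2 was 0.03 in place of -0.42 with each library clustered on its own. Dermal sheath-like cells had 22 CPM and 83 CPM (0.265, 0.177 to 0.394). Dermal papilla-like cells, the signalling cells at the base of the hair follicle, had 52.8 CPM and 231 CPM (0.228, 0.17 to 0.302), the highest level of the control library. Different clusters held most dermal papilla-like cells in the libraries: the cluster led by Hhip, Mdk and Wif1 had 304 cells in metformin and 82 in control, and the cluster led by Slc26a7, Notum and Rasd1 had 18 and 269. Within the cluster led by Hhip the Ptges levels were 48.4 CPM and 106 CPM (0.458, 0.289 to 0.74).

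Ptgds, the lipocalin-type synthase of prostaglandin D that is also secreted as a carrier protein, came mostly from a small class of cells. Melanocyte-like cells, 41 in metformin and 51 in control, had 5079 CPM (4694 to 5489) and 2538 CPM (2254 to 2849), and held 82.5% and 94.4% of all Ptgds UMIs of their library. The level was 1887-fold and 6743-fold that of all other cells, and Ptgds was the only member past 4-fold in both libraries there, beside 3.82% of genes. Every Ptgds UMI of the class lay in cells with a UMI of Dct, the melanin enzyme dopachrome tautomerase. Of these, 17 of 17 in metformin and 16 of 20 in control had Ptgds, with a median of 20 and 14.5 UMIs in the cells that had it. The cells of the class with no Dct UMI, 24 and 31, had no Ptgds UMI, which by a limit of 3 counts allows a share of up to 12.5% and 9.68% of such cells, and their Schwann cell markers summed to 7153 CPM and 8474 CPM.

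The Ptgds ratio in melanocyte-like cells was 2.0 (1.74 to 2.31). The 6 melanocyte markers moved with it, at 18921 CPM in metformin and 6543 CPM in control, and in cells with Dct they summed to 31077 CPM and 12530 CPM where Ptgds was 8350 CPM and 4861 CPM. The 5 cells richest in Ptgds held 71.9% and 64.7% of its UMIs in the class, and the part of the markers and of these cells in the ratio was not tested. In all other cells Ptgds was 2.69 CPM in metformin and 0.376 CPM in control, from 136 and 17 UMIs, with a UMI in 1.24% and 0.104% of cells. In metformin these low levels were found in every other named class except macrophage-like cells, from 0.968 CPM in upper hair follicle-like to 15.4 CPM in Langerhans cell-like cells, with at most 12 UMIs in a cell in metformin and 5 in control. The melanocyte markers in the same other cells summed to 19.6 CPM and 20.8 CPM. The source of these UMIs was not tested.

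Hpgd, the dehydrogenase that begins prostaglandin breakdown, was highest in dermal sheath-like cells in metformin (178 CPM) and in dermal papilla-like cells in control (101 CPM). In control, sebaceous gland-like (47.1 CPM) and hair follicle stem or outer root sheath-like cells (39.2 CPM) were near fibroblast-like cells (42.9 CPM). Fibroblast-like cells, 14.4% and 38.1% of the cells, held 42.6% of its UMIs in metformin and 52.5% in control. Their level was 118 CPM in metformin (108 to 129) and 42.9 CPM in control (39.1 to 47), and 19.9% and 9.78% of them had a UMI. Suprabasal epidermis-like cells, a class that lacks it, had a UMI in 0.59% and 0.57% of cells. Macrophage-like cells had 89.7 CPM and 77.6 CPM, with a ratio of 1.16 (0.622 to 2.07), while epidermal layers stayed under 10 CPM in both libraries.

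In fibroblast-like cells Hpgd went opposite to Ptgs2. The ratio was 2.76 (2.43 to 3.13), and each of the 4 clusters was higher in metformin. The cluster led by Coch, Ctgf and Dkk2 had 135 CPM and 26.2 CPM (5.14, 3.97 to 6.72), that led by Tnc, Timp1 and Cxcl12 147 CPM and 62.6 CPM (2.34, 1.89 to 2.9), that led by Cyp2f2, Cpz and Dcn 90.9 CPM and 45.8 CPM (1.99, 1.47 to 2.67), and that led by Stc1, Igfbp2 and Grem1 58.1 CPM and 30.8 CPM (1.89, 1.21 to 2.89). Dermal sheath-like cells, the mesenchyme that wraps the follicle, had 178 CPM and 23.2 CPM from 347 and 19 UMIs (7.66, 4.83 to 12.9). Their 5 defining markers summed to 2749 CPM in metformin and 760 CPM in control, so this class was unlike in the libraries too. Thinning left the order in place, with a UMI in 11.3% and 6.27% of fibroblast-like cells and in 16% and 0.943% of dermal sheath-like cells. Both Ptgs2 and Hpgd were found in 0 of 1124 thinned fibroblast-like cells in metformin, which allows a share of up to 0.267%, and in 7 of 3143 in control (0.223%), beside products of the single shares of 0.271% and 0.522%.

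In the hair follicle and sebaceous gland there were classes with less Hpgd in metformin. Hair follicle stem or outer root sheath-like cells had 5.45 CPM and 39.2 CPM from 13 and 38 UMIs (0.139, 0.068 to 0.267). Sebaceous gland-like cells had 21.3 CPM and 47.1 CPM (0.452, 0.291 to 0.691). Dermal papilla-like cells had 63 CPM and 101 CPM (0.626, 0.456 to 0.858), and the cells of the cluster led by Hhip 65.6 CPM and 117 CPM (0.562, 0.369 to 0.876). The Hpgd ratio thus lay on opposite sides of 1 in the dermal sheath-like and the follicle stem-like classes.

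**Figure D3:**
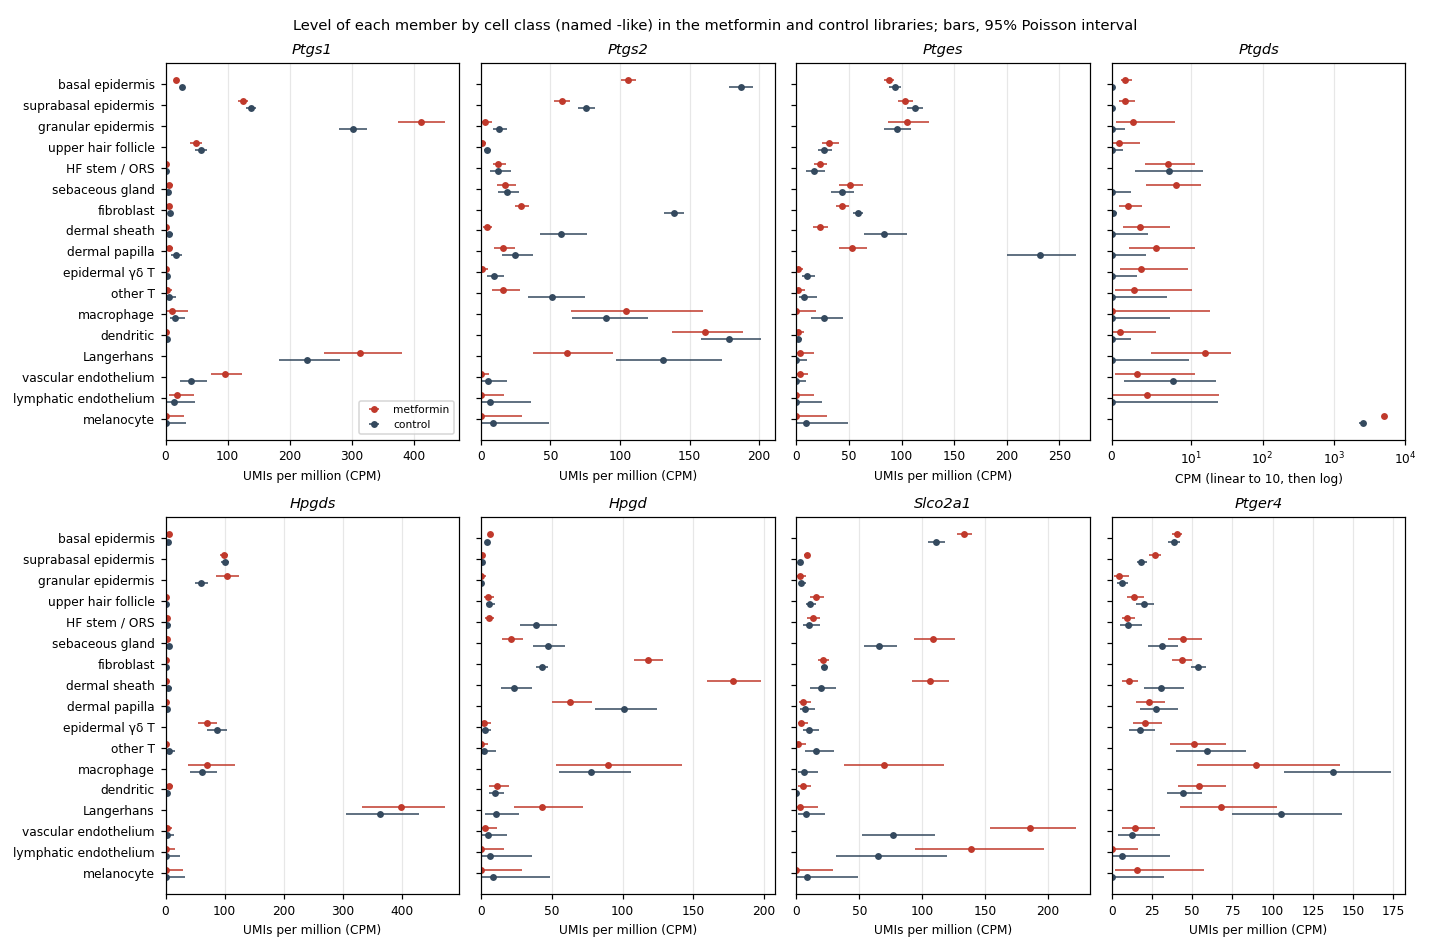
Level of each of the 8 members in CPM (horizontal axes, own scale for each gene, Ptgds linear to 10 and logarithmic above) in 17 cell classes (rows), for metformin (red, upper point) and control (dark, lower point), with 95% Poisson intervals. Ptgs1 and Hpgds share granular or suprabasal epidermis and Langerhans cells, and Ptgds stands in melanocytes at 5079 CPM and 2538 CPM. Hpgd is highest in dermal sheath in metformin and in dermal papilla in control.

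Slco2a1, the carrier that takes prostaglandins into cells, was highest among named classes in vascular endothelium-like cells in metformin and in basal epidermis-like cells in control. Basal epidermis-like cells had 133 CPM in metformin (128 to 139) and 111 CPM in control (105 to 118), and held 68.6% and 64.2% of all its UMIs. One layer up, suprabasal cells had 8.11 CPM and 3.2 CPM. Its level in basal cells was 5.08-fold and 6.4-fold that of all other cells, and it was the only member past 4-fold in both libraries there, beside 0.625% of genes. Vascular endothelium-like cells had 186 CPM (154 to 222) and 77.1 CPM (52 to 110), lymphatic endothelium-like cells 139 CPM and 65.2 CPM, and sebaceous gland-like cells 109 CPM and 65.9 CPM. The unnamed cluster led by Plac8, Gpx3 and Sfrp4 had 186 CPM and 112 CPM. Dendritic cell-like cells had a UMI in 1.2% and 0% of cells, which allows up to 0.85% of the 353 control cells.

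Slco2a1 was higher in metformin in both endothelia, basal cells, sebaceous gland-like and dermal sheath-like cells. The ratio was 1.2 (1.12 to 1.29) in basal cells, 2.41 (1.6 to 3.72) in vascular endothelium-like cells, 2.13 (1.02 to 4.87) in lymphatic endothelium-like cells, 1.65 (1.28 to 2.14) in sebaceous gland-like cells and 5.43 (3.26 to 9.68) in dermal sheath-like cells (106 CPM and 19.5 CPM). In fibroblast-like cells it was 0.948 (0.739 to 1.21), from 21 CPM and 22.1 CPM, but the clusters differed: 0.405 (0.154 to 0.904) in that led by Cyp2f2, Cpz and Dcn, and 1.95 (1.02 to 3.76) in that led by Coch, Ctgf and Dkk2. Its log2 was 0.52 in place of -0.08 when the libraries were clustered apart, and 0.50 with the Plac8 cluster counted in, an alternative chosen after seeing the data. In dermal sheath-like cells it was thus higher together with Hpgd, in a class whose markers also differed.

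Ptger4, a receptor of prostaglandin E that raises cyclic AMP, was spread more evenly. Macrophage-like cells had 89.7 CPM in metformin (53.2 to 142) and 137 CPM in control (107 to 174), and Langerhans cell-like cells 67.8 CPM (42.5 to 103) and 105 CPM (75 to 143). Other T cell-like cells had 51.3 CPM and 59 CPM, dendritic cell-like cells 54.4 CPM and 44.5 CPM, fibroblast-like cells 43.6 CPM and 53.7 CPM, and basal epidermis-like cells 40.5 CPM and 38.6 CPM. In both libraries the intervals of the 5 highest classes overlapped from each to the next. Granular cells had 4.53 CPM and 6.18 CPM. Ratios held 1 in their interval in basal cells (1.05, 0.923 to 1.2), macrophage-like cells (0.653, 0.366 to 1.11) and dendritic cell-like cells (1.22, 0.84 to 1.78). They did not in suprabasal cells (1.45, 1.16 to 1.8), fibroblast-like cells (0.811, 0.686 to 0.956, with a log2 of 0.07 when the libraries were clustered apart) or dermal sheath-like cells (0.353, 0.188 to 0.656). Exons of Ptger4 overlap those of Ttc33 on the other strand, and whether the counting used strand was not stated in the sources used here.

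**Figure D4:**
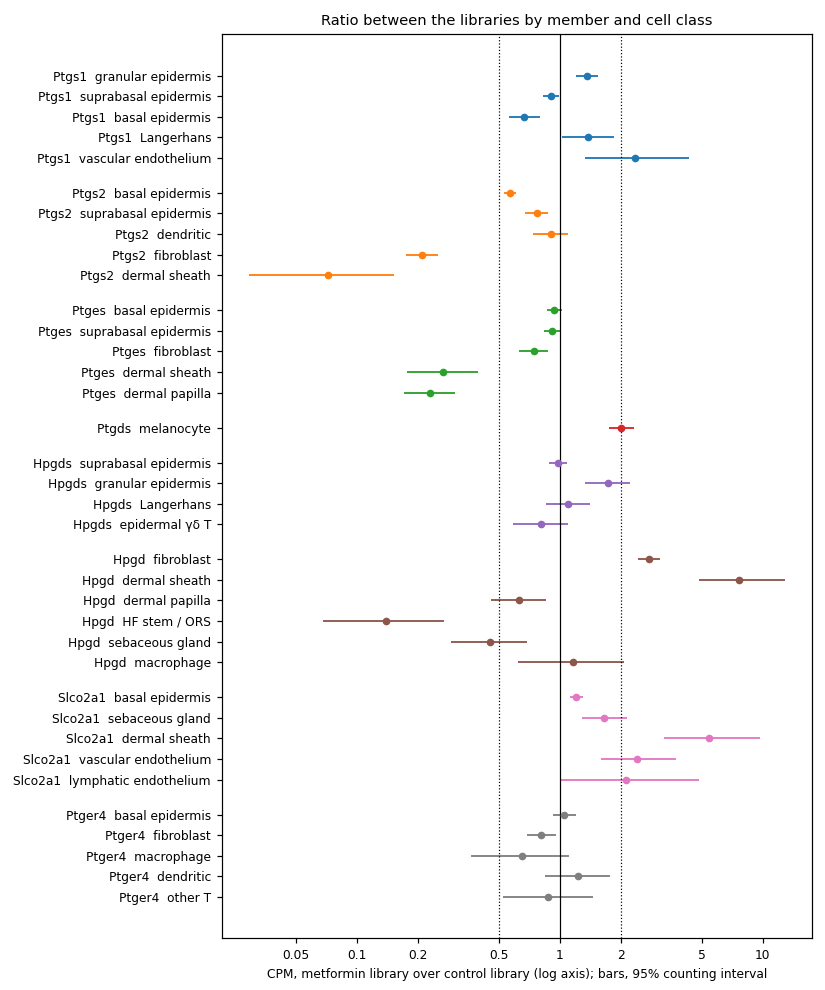
Metformin over control CPM (horizontal log axis) for the 8 members in the classes named beside each point (rows, grouped and coloured by member), with 95% counting intervals, a solid line at 1 and dotted lines at 0.5 and 2. Ptgs2 and Hpgd part company in fibroblast-like cells (0.209 and 2.76) and dermal sheath-like cells (0.0714 and 7.66), and Ptges is at 0.228 in dermal papilla-like cells.

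Over the 4 broad classes, members past a 2-fold ratio were counted among those with at least 20 UMIs in both libraries together. In keratinocyte-like cells 1 of 8 was past 2-fold higher, Ptgds, at 2.38 CPM and 0.274 CPM from 87 and 7 UMIs, beside 8.71% of all genes, and 0 were past 2-fold lower, beside 3.4%. In fibroblast-like cells 1 of 6 was higher, Hpgd, beside 2.16% of genes, and 1 was lower, Ptgs2, beside 2.9%. In T cell-like cells 0 of 4 were higher, beside 2.97%, and 2 were lower, Ptgs2 (12 and 38 UMIs) and Slco2a1 (5 and 20 UMIs), beside 2.92%. In mononuclear phagocyte-like cells 1 of 7 was higher, Slco2a1 (20 and 6 UMIs), beside 2.11%, and 1 was lower, Ptges (5 and 17 UMIs), beside 3.94%. With a wider cell filter 0 members were past 2-fold in either of these immune classes, and the log2 ratio of Slco2a1 in T cell-like cells was 0.31 in place of -2.05. Over all genes the median log2 ratio was 0.12 in keratinocyte-like and 0.17 in dermal papilla-like and in hair follicle stem or outer root sheath-like cells, and dividing by it changed none of these counts. The median log2 ratio of the measured members was -0.50 in keratinocyte-like, -0.36 in fibroblast-like, -1.14 in T cell-like and 0.20 in mononuclear phagocyte-like cells, where all genes had 0.12, 0.03, 0.03 and -0.01. The pooled keratinocyte-like value mixes unlike cells. By layer, the member median was 0.17 in basal and -0.08 in suprabasal epidermis-like cells, where all genes had 0.03 and -0.004.

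Of the pathway around the members, 25 further genes were listed and all are in the files. The list was chosen with earlier results of these data known. In keratinocyte-like cells 16 were measured, 0 past 2-fold higher, beside 8.71% of all genes, and 1 past 2-fold lower, beside 3.4%. The lower one was Pla2g2f, a secreted phospholipase of the epidermis (60.0 CPM in metformin and 131 CPM in control, 0.459, 0.435 to 0.485). By layer, its ratio was 1.17 (1.003 to 1.367) in basal and 0.898 (0.81 to 0.995) in suprabasal cells. In granular cells it had 634 CPM and 772 CPM. The median log2 ratio of the 16 was -0.33, against 0.12 over all genes. Without hair matrix-like cells 0 of them were past 2-fold. By layer, the median of the list was 0.09 in basal and -0.11 in suprabasal epidermis-like cells, against 0.03 and -0.004 over all genes. In fibroblast-like cells 17 were measured, 0 past 2-fold higher, beside 2.16% of genes, and 1 past 2-fold lower, beside 2.9%. The lower one was Pla2g2e, another secreted phospholipase (38.2 CPM and 81.9 CPM, 0.466, 0.393 to 0.55). In T cell-like cells 0 of 10 were past 2-fold, beside 2.97% of genes higher and 2.92% lower. In mononuclear phagocyte-like cells 2 of 15 were higher, beside 2.11% of genes, and 1 was lower, beside 3.94%. These were Pla2g5 (29 and 13 UMIs), Ptges2 (19 and 14 UMIs) and Pla2g2f (3 and 23 UMIs), named after their values were seen.

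Several of the other prostanoid receptors had their highest level in dermal classes. Ptgfr, the receptor of prostaglandin F, was led by fibroblast-like cells, with 233 CPM in metformin and 205 CPM in control. Ptger3, a receptor of prostaglandin E that lowers cyclic AMP, was led by dermal papilla-like cells, with 52.8 CPM and 112 CPM. The thromboxane receptor Tbxa2r was at 30.4 CPM and 36.5 CPM in fibroblast-like cells, and in dermal sheath-like cells at 44.6 CPM and 25.6 CPM. The prostacyclin receptor Ptgir was highest in smooth muscle or pericyte-like cells in metformin, at 18.2 CPM, and in dermal papilla-like cells in control, at 91.4 CPM. The remaining receptors had few UMIs. Ptger1 had 37 and 21 UMIs in all, Ptger2 19 and 27, and the prostaglandin D receptors Ptgdr 14 and 18 and Ptgdr2 1 and 1. Few UMIs of the prostaglandin D receptors were thus captured in either library.

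Lipoxygenases use the same arachidonic acid. A list of 12 lipoxygenase and leukotriene genes gave 9 measured in keratinocyte-like cells, 1 past 2-fold higher, beside 8.71% of all genes, and 3 past 2-fold lower, beside 3.4%. The lower ones were Alox12b (3.44 CPM and 24.6 CPM, 0.14, 0.115 to 0.17) and Aloxe3 (2.54 CPM and 8.5 CPM, 0.299, 0.232 to 0.383), which build the water barrier of the upper epidermis, and Alox12 (2.32 CPM and 6.69 CPM, 0.347, 0.264 to 0.453). Granular epidermis-like cells were 2.45% of keratinocyte-like cells in metformin and 7.17% in control, and the part of this in the ratios was not tested. Within granular cells, whose markers differed between the libraries, Alox12b had 84.2 CPM in metformin and 257 CPM in control. Aloxe3 had 33.5 CPM and 73.3 CPM there, and Alox12 had 33.5 CPM and 38.8 CPM. Alox8, the gene past 2-fold higher and named after its values were seen, had 58 and 2 UMIs.

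Genes most like each member were ranked by the Pearson correlation of log2(CPM + 10) over 38 points, 19 classes in each of 2 libraries, among 8020 genes with the members left out. These points share libraries and depth, so the values are descriptions. Ptgs1 was most like Tspan8 (0.791), Stard4 (0.773) and Nudt17 (0.749), and Hpgds like Cers6 (0.751), Tspan8 (0.743) and Tmem123 (0.702). Ptgs2 was most like Il1r2 (0.606), Rap2b (0.605) and Nfkbiz (0.604), and Ptger4 like Ccrl2 (0.729), Cotl1 (0.712) and Cd44 (0.712). Ptges was most like Rarres1 (0.879), Efs (0.865) and Tpbg (0.829). Hpgd was most like Clmp (0.770), Pdgfc (0.763) and Idh2 (0.750), and Slco2a1 like Cdh13 (0.802), Ltbp4 (0.744) and Acer2 (0.707). Among the members themselves, Ptgs2 and Ptger4 were the most alike at 0.727, above any of the other genes ranked for Ptgs2, followed by Ptgs1 and Hpgds at 0.663. Melanocyte-like cells are not among the points, so no ranking is given for Ptgds.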

How the data were processed

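Single-cell libraries labelled metformin and control were used, 1 per condition. Per the labels the authors ran Cell Ranger 4.0.0 on mm10 (GRCm38), and the deposited matrices hold raw UMI counts per gene and barcode. Other settings, and whether counting used strand, were not given in the sources used here.

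Kept cells had between 300 and 3000 genes, no fewer than 800 UMIs and no more than 8% mitochondrial UMIs. The gene limit removed 19.4% of metformin and 12.1% of control barcodes, and Scrublet marked 287 and 234 doublets, which were left out. Library totals were 92341365 and 71345558 UMIs. Counts scaled to 10000 per cell, 2000 variable genes without the members and the other pathway genes, 30 principal components and Leiden clustering at resolution 1 (scanpy 1.11.5, leidenalg 0.10.2) gave the clusters. These were named from marker lists, by a rule revised once after the clusters had been seen. Levels have exact Poisson intervals, shares Clopper-Pearson intervals and ratios conditional binomial intervals (scipy 1.17.1). A count of 0 was given a limit of 3 counts. The ratio step was tested on simulated data.

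The members and lists were chosen with earlier results of these data known. All 8 members were named, with pathway genes past 2-fold and at least 100 counts, the prostanoid receptors and the 3 genes most like each member. The 4-fold threshold over all other cells, the pairs for co-detection and the split by Dct were chosen after levels were seen. Alternatives were a wider cell filter, doublets kept, each library clustered alone, resolution 2, members among the variable genes, at least 5 in place of 20 counts, thinning, means over cells, division by the median gene ratio and leaving out the richest cell. Clusters are called by their 3 leading genes.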

Additional observations from a re-analysis of the deposited data

Results flagged for a closer look

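The ratio of Ptgs1 went opposite ways in a pair of classes outside the epidermis. It was 2.33 (1.33 to 4.34) in vascular endothelium-like cells, from 61 UMIs in metformin and 16 in control, and 0.389 (0.141 to 0.994) in dermal papilla-like cells, from 8 and 14 UMIs. The difference between these classes was not tested, since each condition had 1 library. Different clusters held most dermal papilla-like cells in the libraries. In the cluster led by Hhip, Mdk and Wif1, with 304 cells in metformin and 82 in control, Ptgs1 had 7 and 0 UMIs. These were too few for a ratio to be measured.

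The ratio of Hpgd did the same across the hair follicle. It was 7.66 (4.83 to 12.9) in dermal sheath-like cells, from 347 UMIs in metformin and 19 in control, and 0.139 (0.068 to 0.267) in hair follicle stem or outer root sheath-like cells, from 13 and 38 UMIs. This difference was not tested either.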

How the results depend on the processing

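Of 561 log2 ratios recomputed under an alternative, 509 stayed inside the 95% counting interval and 44 left it. The other 8 changed sign where the main counting interval of the ratio did not hold 1. Sign changes of ratios whose interval held 1 are counted among the 509 or the 44, not among the 8. With the libraries clustered apart, the log2 ratio became 0.029 for Ptges and 0.066 for Ptger4 in fibroblast-like cells and 0.32 for Ptgs1 in suprabasal epidermis-like cells. The last was 0.016 with doublets kept and 0.039 at resolution 2. Slco2a1 in T cell-like cells became 0.31 under the wider filter and 0.15 with doublets kept, and Hpgd in basal epidermis-like cells -0.061 under the wider filter. The log2 ratio of Hpgd stayed between 1.19 and 1.71 in fibroblast-like and 2.14 and 3.32 in dermal sheath-like cells, and that of Ptgs2 between -0.87 and -0.74 in basal and -2.34 and -0.65 in fibroblast-like cells. The causes were not tested.

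The number of members past 2-fold became 3 in keratinocyte-like cells and 0 in T cell-like and mononuclear phagocyte-like cells under the wider filter. With doublets kept it was 0 in T cell-like and 1 in mononuclear phagocyte-like cells. With each library on its own it was 1 in fibroblast-like, 1 in T cell-like and 0 in mononuclear phagocyte-like cells. It was 4 in T cell-like cells at 5 counts, and 1 in mononuclear phagocyte-like cells at resolution 2 or with members among the variable genes.

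The number of other pathway genes past 2-fold became 3 in keratinocyte-like, 2 in T cell-like and 1 in mononuclear phagocyte-like cells under the wider filter, and 3, 2 and 3 in keratinocyte-like, fibroblast-like and T cell-like cells with doublets kept. It was 3 in keratinocyte-like and 3 in fibroblast-like cells with each library on its own. At 5 counts it was 2 in keratinocyte-like, 3 in T cell-like and 7 in mononuclear phagocyte-like cells, and without hair matrix-like cells, an alternative chosen after seeing the data, 0 in keratinocyte-like cells. No paired analysis was possible because there was 1 library of each condition.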
